A study of Rattus norvegicus with 39 samples.

Results

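Claudins, occludin and ZO-1 seal the tight junctions of the liver's epithelia, and E-cadherin holds neighbouring cells together at the adherens junctions beneath them. The 7 genes described here are Cldn1, Cldn3, Cldn4, Cldn7, Ocln (occludin), Cdh1 (E-cadherin) and Tjp1 (ZO-1), out of 10411 genes that the platform annotation names by 1 symbol. They were taken by symbol, as a list drawn up with earlier results of these data known. A probe set, the group of probes that reads 1 transcript, counted as a member when its annotation gave 1 of these symbols alone. This gave 8 probe sets of 15923 on the array. Ocln has 2 of them, called the brighter and the dimmer Ocln probe set by their mean over all arrays, and each other gene has 1. All 8 were tested, with no filter on low values.

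The study dosed Sprague Dawley rats 8 weeks old with ANIT (1-naphthylisothiocyanate), a compound that injures bile duct epithelium, and cut bile ducts and hepatocytes out of liver sections by laser capture. The bile duct captures came from rats given 50 mg/kg ANIT in corn oil and killed 2 h later (5 arrays), from rats given 10 ml/kg corn oil as vehicle at 2 h (5 arrays), and from the ANIT and vehicle groups at 6 h (5 and 4 arrays). The hepatocyte captures came from the same 4 kinds of treatment and time, with 5 arrays in each. Each array is described as a biological replicate of its group, and the labels do not say which bile duct and hepatocyte captures came from 1 rat. Amplified RNA was hybridised to Affymetrix arrays, and every level here is an RMA value on the log2 scale, where a difference of 1 is a doubling of signal.

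A tight junction is a band of claudin strands near the apical pole of the cell. Claudins set how tight and how ion-selective the band is, occludin is a further membrane protein of the strand, and ZO-1 is the scaffold that ties both to actin. In the liver these junctions separate bile from blood on both sides of its path, between hepatocytes along the bile canaliculi and between cholangiocytes along the ducts. E-cadherin marks cholangiocytes and, in rodent liver, hepatocytes near the portal tract. ANIT is carried into bile from hepatocytes as a glutathione conjugate and so reaches the duct lining.

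Promoter sequences, from RefSeq on the build GRCr8, were at hand for 5 of the 7 genes. The 250 bases before the annotated start were searched on both strands for CACCTG, the E-box that the repressors Snai1 and Zeb1 bind in E-cadherin and claudin promoters. It occurred 4 times for Cldn7, 2 times for Ocln and 1 time for Cldn3, and not for Cldn1 or Tjp1. Of all 33469 promoters in the table, 15.9% held it at least 1 time, 1.84% at least 2 times and 10 promoters at least 4 times. Cldn7 and the brighter of the 2 Ocln probe sets rose with ANIT in bile duct at 6 h, while the dimmer one did not. The windows of these 2 genes are shown 5′ to 3′ with the motif in capitals. That of Cldn7 is chr10:55188420-55188669 on the plus strand, with matches starting 186, 147, 28 and 17 bases before the start, and that of Ocln is chr2:33441199-33441448 on the minus strand, with matches starting 137 and 68 bases before it.
Cldn7: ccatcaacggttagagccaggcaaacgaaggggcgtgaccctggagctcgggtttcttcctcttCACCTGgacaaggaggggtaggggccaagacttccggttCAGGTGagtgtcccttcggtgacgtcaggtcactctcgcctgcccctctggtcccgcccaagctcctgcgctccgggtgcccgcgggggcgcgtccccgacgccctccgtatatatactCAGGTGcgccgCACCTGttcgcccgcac
Ocln: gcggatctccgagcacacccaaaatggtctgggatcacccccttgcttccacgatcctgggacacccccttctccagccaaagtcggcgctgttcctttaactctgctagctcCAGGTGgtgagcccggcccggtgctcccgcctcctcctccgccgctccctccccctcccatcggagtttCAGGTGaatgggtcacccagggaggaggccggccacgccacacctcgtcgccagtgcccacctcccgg
GGGCGG, the GC box, searched in both orientations, occurred 2 times for Cldn1 and 1 time each for Cldn3 and Cldn7, and in 30.5% of all promoters. TGANTCA, the AP-1 motif, occurred in none of the 5 and in 6.34% of all. A match is a description of the letters and not of binding, and no match says only that they are not in this window. The other 2 genes are Cldn4 and Cdh1.

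The captures carried the markers of their labels. The mean of 9 cholangiocyte markers lay between 7.01 and 8.61 in the 19 bile duct arrays, against 3.99 to 4.73 in the 20 hepatocyte arrays, and the mean of 12 hepatocyte markers lay between 3.77 and 7.96 in bile duct arrays, against 9.82 to 10.43 in hepatocyte arrays. Markers of another cell type also differed between the captures: 6 of 8 fibroblast and smooth muscle markers were higher in vehicle bile duct than in vehicle hepatocytes at 2 h and 6 of 8 at 6 h, with a mean level over the 8 of 5.33 to 7.21 in bile duct, against 4.09 to 4.45 in hepatocytes at 2 h, led at 2 h by the collagen gene Col1a1 at 4.95. Their part in the region comparisons of the members was not tested. Hepatocyte signal in the bile duct captures varied between arrays, and it was above 7 in ANIT replicate 4 and in vehicle replicates 1 and 3 at 6 h. Arrays of 1 group correlated with r of 0.979 to 0.993 across probe sets in hepatocytes, but of 0.834 to 0.893 among the vehicle bile duct arrays at 6 h and 0.866 to 0.959 among the ANIT bile duct arrays at 2 h. The spread of values over all probe sets of an array, its SD, was 1.95 to 2.06 in ANIT bile duct arrays at 6 h, against 1.68 to 1.88 in vehicle arrays, with no overlap, and it was also low in ANIT replicates 2 and 4 at 2 h (1.76 and 1.88). In such captures fewer cells of a type and less RNA per cell cannot be told apart.

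Most of the members were higher in bile duct than in hepatocytes without ANIT. In vehicle rats at 2 h, Cldn4, a claudin of tight epithelia, stood at 5.66, 5.13, 5.45, 6.23 and 5.03 in bile duct, against 1.66, 1.57, 1.91, 1.41 and 1.65 in hepatocytes. Cldn7, a claudin that also lies on the lateral membrane and binds EpCAM, stood at 3.66, 4.42, 6.21, 6.31 and 4.85 in bile duct, against 1.97, 1.99, 1.97, 1.78 and 1.97 in hepatocytes. Both genes were near the bottom of the array's scale in hepatocytes and far above it in every bile duct array, with Cldn7 the more variable of them among ducts. The differences were 3.86 ± 0.21 for Cldn4 (SE, adjusted p = 2.98e-09) and 3.15 ± 0.42 for Cldn7 (adjusted p = 2.27e-05), from limma with Benjamini-Hochberg adjustment over all 15866 tested probe sets, the test used throughout. Hepatocyte signal this near the floor cannot be told from background in these values, so each difference in level of these 2 genes, bile duct minus hepatocytes, is a lower bound.

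Cdh1 averaged 10.1 ± 0.19 in vehicle bile duct at 2 h and 7.6 ± 0.33 in vehicle hepatocytes (SD, n = 5 each), a difference of 2.48 ± 0.17 (SE, adjusted p = 3.76e-08). Tjp1 averaged 8.59 ± 0.11 in bile duct and 7.09 ± 0.16 in hepatocytes, a difference of 1.51 ± 0.13 (adjusted p = 4.15e-07). The brighter Ocln probe set averaged 5.37 ± 0.43 in bile duct and 3.74 ± 0.29 in hepatocytes, a difference of 1.62 ± 0.21 (adjusted p = 2.35e-05). All 3 were higher in every bile duct array than in any hepatocyte array. The dimmer Ocln probe set was higher in bile duct by 0.84 ± 0.23 (adjusted p = 0.00827), with overlapping arrays.

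The other 2 claudins differed in direction. Cldn3, a strand-forming claudin, stood at 7.78, 7.61, 7.49, 7.67 and 7.73 in vehicle bile duct at 2 h, against 7.07, 6.98, 6.82, 6.65 and 6.01 in vehicle hepatocytes, and was higher in bile duct by 0.95 ± 0.19 (SE, adjusted p = 8.23e-04). Cldn1, a claudin of hepatocyte and duct junctions, stood at 2.92, 2.76, 2.4, 2.66 and 3.19 in bile duct, against 4.39, 4.49, 4.00, 4.27 and 4.08 in hepatocytes. It was the only member lower in bile duct, by 1.46 on the log2 scale (log2 difference -1.46 ± 0.17, adjusted p = 6.33e-06), and its arrays did not overlap. In this comparison 7 of the 8 member probe sets were higher in bile duct and 1 was lower, where 52.2% of all probe sets passed, 28.7% higher and 23.5% lower. The median difference was 1.57 over the members and 0.16 over all probe sets.

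At 6 h the vehicle comparison kept 6 of the 8 probe sets higher in bile duct and none lower, where 53.7% of all passed, 29.3% higher and 24.4% lower. Cldn4 differed by 2.57 ± 0.22 (SE, adjusted p = 1.52e-06), Cldn7 by 2.14 ± 0.43 (adjusted p = 0.00120), Cdh1 by 1.40 ± 0.24 (adjusted p = 4.22e-04) and Tjp1 by 1.12 ± 0.21 (adjusted p = 8.46e-04). The brighter Ocln probe set, at 0.77 ± 0.30 (adjusted p = 0.0432), and the dimmer one, at 0.80 ± 0.29 (adjusted p = 0.0311), lay near the threshold: leaving out 1 array at a time kept the first in 2 of 9 fits and the second in 3 of 9. Cldn1 (0.69 ± 0.38, adjusted p = 0.135) and Cldn3 (0.31 ± 0.27, adjusted p = 0.335) did not pass. Without vehicle bile duct replicate 4, Cldn1 at 6 h passed as higher in bile duct, at 1.09 (adjusted p = 0.0101). Vehicle bile duct replicates 1 and 3 of 6 h are arrays of high hepatocyte signal (7.18 and 7.96). The SD of the arrays also separated the regions. It was 1.68 to 1.88 in vehicle bile duct and 2.24 to 2.29 in vehicle hepatocytes at 6 h, and 1.99 to 2.18 and 2.32 to 2.37 at 2 h. The part of the SD in the region differences was not tested.

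**Figure D1:**
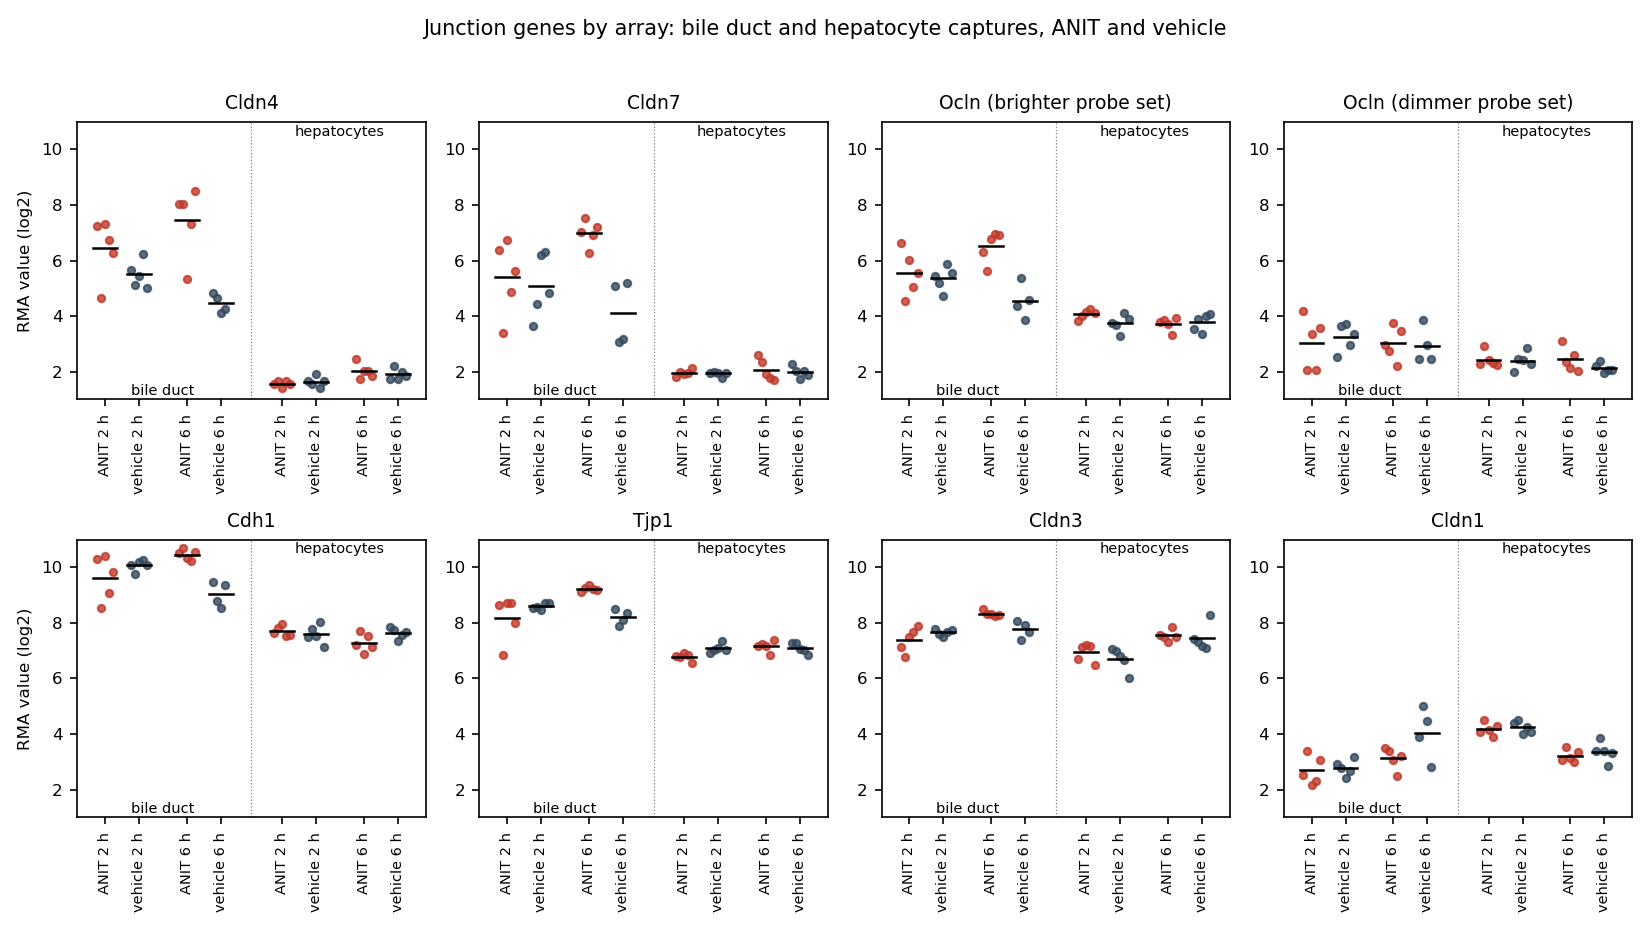
Each point is 1 array, with its RMA value (log2) on the vertical axis, and black bars are group means. Bile duct groups stand left of the dotted line and hepatocyte groups right of it, with ANIT (red) left of vehicle (dark blue) at 2 h and at 6 h. At 6 h, all ANIT bile duct arrays lie above all vehicle ones for Cldn4, Cldn7, the brighter Ocln probe set, Cdh1, Tjp1 and Cldn3. The change of Cldn3 did not pass by limma. The share of such separation over all probe sets was not counted.

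At 6 h after ANIT, 5 of the 8 member probe sets had risen in bile duct captures and none had fallen, where 6.51% of all probe sets passed, 5.17% higher and 1.34% lower. Those that rose were Cldn4, Cldn7, the brighter Ocln probe set, Cdh1 and Tjp1. The median change was 1.21 over the 8 members and -0.05 over all probe sets.

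Cldn4 stood at 8.03, 8.04, 5.33, 7.30 and 8.52 in ANIT bile duct at 6 h, against 4.85, 4.65, 4.13 and 4.26 in vehicle bile duct. Every ANIT array was above every vehicle array, and ANIT replicate 3 was the lowest of its group. The change was 2.97 ± 0.51 (SE, adjusted p = 0.00563), a 7.84-fold rise in signal, with a 95% interval of 1.87 to 4.07. Without ANIT replicate 3 it was 3.5. Cldn7 stood at 7.04, 7.52, 6.29, 6.91 and 7.22 in ANIT bile duct, against 5.10, 3.07, 3.16 and 5.18 in vehicle bile duct. The vehicle arrays fell into a higher and a lower pair, both below all ANIT arrays. The change was 2.87 ± 0.46 (adjusted p = 0.00346), 7.30-fold, with an interval of 1.89 to 3.85.

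The brighter Ocln probe set stood at 6.31, 5.64, 6.79, 6.94 and 6.92 in ANIT bile duct, against 4.35, 5.37, 3.85 and 4.59 in vehicle bile duct. The groups did not overlap, with ANIT replicate 2 and vehicle replicate 2 nearest to each other. The change was 1.98 ± 0.37 (SE, adjusted p = 0.00746), 3.94-fold, with a 95% interval of 1.19 to 2.77. The dimmer Ocln probe set did not show it: its arrays read 2.95, 2.73, 3.74, 2.22 and 3.48 in ANIT bile duct, against 2.47, 3.86, 2.96 and 2.45 in vehicle bile duct. Its change was 0.09 ± 0.38 (adjusted p = 0.917), with an interval of -0.73 to 0.90. The rise of occludin is thus read by 1 of its 2 probe sets. The annotation ties the brighter one to an expressed sequence tag and the dimmer one to the RefSeq transcript.

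Cdh1 stood at 10.53, 10.68, 10.32, 10.23 and 10.55 in ANIT bile duct, against 9.46, 8.79, 8.53 and 9.38 in vehicle bile duct. The ANIT arrays were tightly grouped and all lay above the more spread vehicle arrays. The change was 1.42 ± 0.29 (SE, adjusted p = 0.0114), 2.68-fold. Tjp1 stood at 9.11, 9.25, 9.37, 9.22 and 9.17 in ANIT bile duct, against 8.50, 7.90, 8.11 and 8.36 in vehicle bile duct. These groups did not overlap either. The change was 1.01 ± 0.26 (adjusted p = 0.0345), 2.01-fold, and it was the least stable of the calls: leaving out 1 array at a time kept it in 2 of 9 fits, with adjusted p up to 0.0751 and a change of 0.90 to 1.10. The calls of Cldn4, Cldn7, the brighter Ocln probe set and Cdh1 held in 9 of 9 such fits.

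The remaining claudins did not pass. Cldn3 stood at 8.50, 8.31, 8.31, 8.25 and 8.29 in ANIT bile duct, against 8.06, 7.39, 7.93 and 7.68 in vehicle bile duct. Its groups did not overlap, yet the change of 0.57 ± 0.27 (SE) had an adjusted p of 0.213. Cldn1 stood at 3.51, 3.4, 3.08, 2.48 and 3.21 in ANIT bile duct, against 3.88, 5.01, 4.46 and 2.83 in vehicle bile duct, with a change of -0.91 ± 0.40 (adjusted p = 0.188). Vehicle replicate 4 was low for Cldn1, and without it the change was -1.31 (adjusted p = 0.0427).

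The vehicle arrays of 6 h and 2 h differed in some members. When the 5 vehicle bile duct arrays of 2 h stood in for those of 6 h, which mixes treatment with time, the ANIT arrays of 6 h were higher by 1.94 for Cldn4 (adjusted p = 0.0168), by 1.91 for Cldn7 (adjusted p = 0.0125), by 1.15 for the brighter Ocln probe set (adjusted p = 0.0176) and by 0.63 for Tjp1 (adjusted p = 0.0283). Cdh1 was higher by only 0.38 and did not pass (adjusted p = 0.205), and Cldn3, at 0.68, did (adjusted p = 0.0201). In vehicle rats, bile duct at 6 h read lower than at 2 h for Cdh1, by 1.04 on the log2 scale (log2 difference -1.04 ± 0.27, adjusted p = 0.0256), and for Cldn4 (-1.03 ± 0.30, adjusted p = 0.0372), and it read higher for Cldn1 (1.26 ± 0.38, adjusted p = 0.0420). Leaving out 1 array at a time kept Cdh1 in 5 of 9 fits, Cldn4 in 2 of 9 and Cldn1 in 1 of 9. These 3 of 8 compare with 14.0% of all probe sets, 5.38% higher and 8.66% lower. Of the 9 cholangiocyte markers 4 were also lower at 6 h, Onecut1, Krt7, Spp1 and Aqp1, and their list had a median difference of -1.20, while the 12 hepatocyte markers had a median of 1.11 and none passed by limma. The part of the cholangiocyte markers in the members' differences was not tested. None of the 3 passed with the hepatocyte marker level or the SD of the arrays as a covariate. None passed without the 2 vehicle arrays of high hepatocyte signal either. Cldn1 turned to -0.19 (adjusted p = 0.941) with the SD as a covariate. The SD was 1.68 to 1.88 in vehicle bile duct at 6 h, against 1.99 to 2.18 at 2 h, with no overlap. Time and SD thus cannot be told apart in these vehicle arrays.

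Measures of the whole array moved with treatment at 6 h. The SD of the values on an array was higher in ANIT than in vehicle bile duct by 0.2 (exact two-sided permutation p = 0.00794, 0.0397 adjusted over 10 array measures). That p is the smallest that 5 against 4 arrays allow. The median of the values was lower, at 3.97 to 4.03 in ANIT against 4.07 to 4.12 in vehicle arrays (exact permutation p = 0.00794, adjusted 0.0397). The RNA quality controls did not move one way: the 3' minus 5' difference of the actin control probes averaged 5.08 in ANIT and 4.43 in vehicle arrays (exact permutation p = 0.0159, adjusted 0.0529), and that of GAPDH averaged 4.24 in ANIT and 4.49 in vehicle arrays (exact permutation p = 0.397, adjusted 0.567). The actin 3' signal itself averaged 8.63 in ANIT and 7.67 in vehicle arrays (exact permutation p = 0.0556, adjusted 0.139). With the SD as a covariate, limma called none of the 15866 probe sets and none of the 8 members passed, and the changes of the 5 members became 4.12 for Cldn4 (adjusted p = 0.148), 1.78 for Cldn7 (adjusted p = 0.420), 2.31 for the brighter Ocln probe set (adjusted p = 0.227), 1.18 for Cdh1 (adjusted p = 0.415) and 0.56 for Tjp1 (adjusted p = 0.685). Because every ANIT array has a higher SD than every vehicle array, the 2 cannot be told apart at 6 h. Correlation with the SD across the 19 bile duct arrays is a description of arrays that share treatment and time. It was r = 0.790 for Cdh1, 0.620 for Cldn7, 0.546 for Tjp1, 0.516 for the brighter Ocln probe set and 0.401 for Cldn4. For Cldn1 it was -0.705, for the dimmer Ocln probe set 0.366 and for Cldn3 0.206. With the SD as a covariate, the change of Cldn1 with ANIT at 6 h turned to 0.70 (adjusted p = 0.687).

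The 12 hepatocyte markers had a median change of -1.20 with ANIT in bile duct at 6 h. Their mean level was 3.77 to 7.26 in ANIT bile duct at 6 h, against 4.46 to 7.96 in vehicle bile duct. None of the 12 passed by limma, with 1 at an unadjusted p under 0.05. Cyp7a1, the rate-limiting enzyme of bile acid synthesis, was the lowest of them, with a mean of 2.28 in ANIT and 2.16 in vehicle bile duct, near the floor of the scale. With the mean of the 12 hepatocyte markers as a covariate, the changes were 2.85 for Cldn4, 2.80 for Cldn7, 1.84 for the brighter Ocln probe set and 1.35 for Cdh1, all of which passed, and 1.03 for Tjp1, which did not (adjusted p = 0.0578). Leaving out the 3 arrays of high hepatocyte signal left 4 ANIT and 2 vehicle arrays, and only Cldn7 then passed (2.89, adjusted p = 0.0334). The other changes were 3.03 for Cldn4 (adjusted p = 0.0586), 1.44 for the brighter Ocln probe set (adjusted p = 0.124), 1.44 for Cdh1 (adjusted p = 0.0718) and 1.10 for Tjp1 (adjusted p = 0.141). The 9 cholangiocyte markers gave 0 calls by limma, with 2 at an unadjusted p under 0.05, and a mean level of 7.26 ± 0.15 in ANIT and 7.37 ± 0.39 in vehicle bile duct (SD, n = 5 and 4). Their median change was -0.20, and the highest was that of the keratin Krt7, 1.12 (adjusted p = 0.0874). The part of these markers in the members' changes was not tested beyond these fits.

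**Figure D2:**
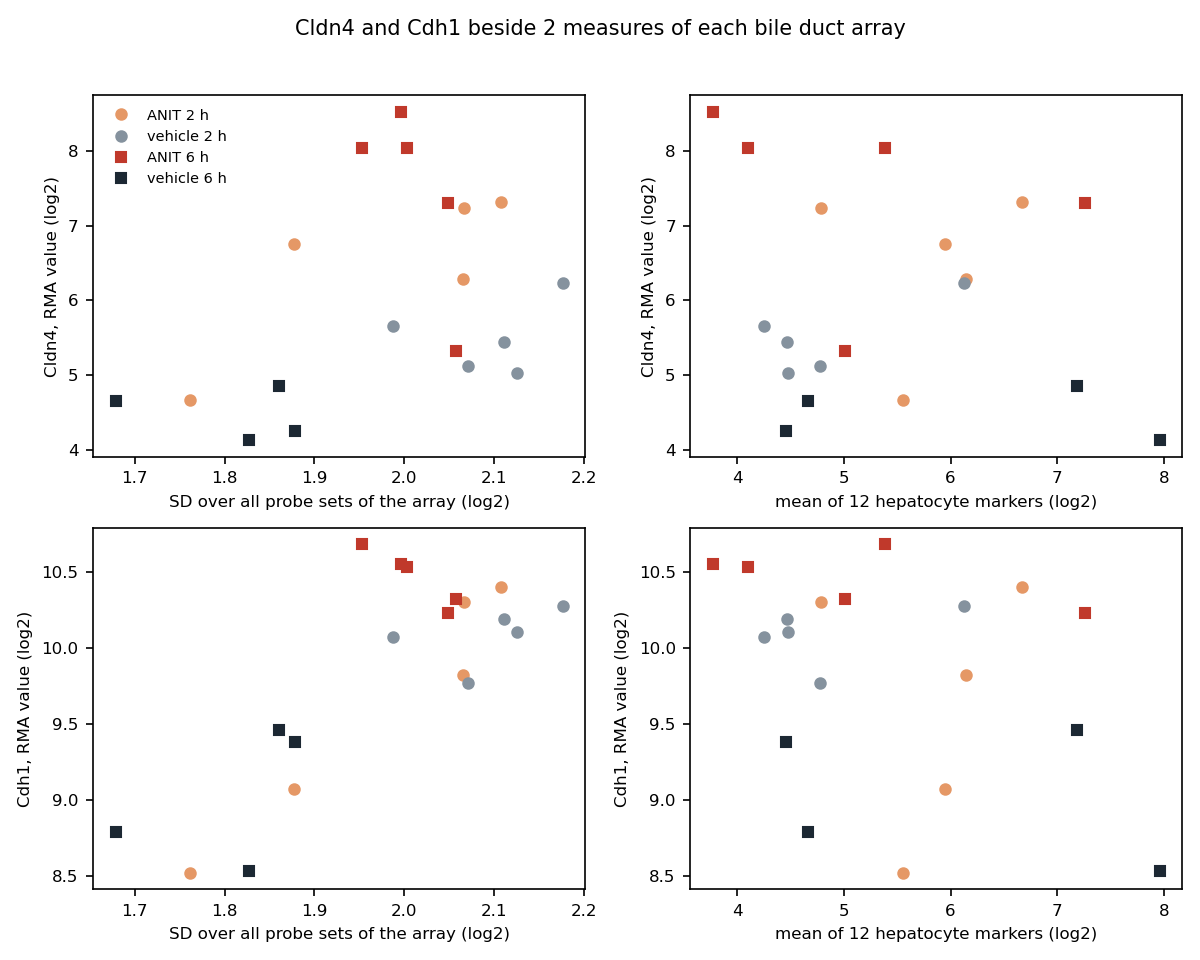
The RMA values (log2) of Cldn4 (upper row) and Cdh1 (lower row) are plotted for the 19 bile duct arrays against the SD over all probe sets of the array (left) and the mean of 12 hepatocyte markers (right), with treatment and time marked by colour and shape. The 5 ANIT arrays of 6 h lie at an SD of 1.95 or more and the 4 vehicle arrays of 6 h at 1.88 or less, while both groups span the hepatocyte marker level.

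In the authors' deposited table, ANIT over vehicle in bile duct at 6 h was 5.80-fold higher for Cldn4, 3.82-fold for Cldn7, 2.87-fold for the brighter Ocln probe set, 1.53-fold for Cdh1 and 1.22-fold for Tjp1. Adjusted over all probe sets, the authors' deposited table gave p = 2.80e-07 for Cldn4, 7.93e-05 for Cldn7, 1.53e-04 for the brighter Ocln probe set and 0.0107 for Cdh1, while Tjp1 did not pass (0.475). The folds of the authors' deposited table were smaller than those from the RMA values for all 5 genes.

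At 2 h none of the 8 members passed in bile duct by limma, where 1.12% of all probe sets did (0.258% higher and 0.863% lower), and 1 member had an unadjusted p under 0.05. None passed in the authors' deposited table either. Cldn4 came nearest: it stood at 7.23, 4.67, 7.31, 6.75 and 6.28 in ANIT bile duct, against 5.66, 5.13, 5.45, 6.23 and 5.03 in vehicle bile duct. ANIT replicates 1, 3, 4 and 5 were above all vehicle arrays and ANIT replicate 2 was below them. The change was 0.95 ± 0.43 (SE, adjusted p = 0.278, unadjusted 0.0417), and without ANIT replicate 2, an array of low SD, it was 1.39 and passed (adjusted p = 0.0290). That array was the lowest of its group for 7 of the 8 member probe sets and the highest for Cldn1.

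The other members showed no change past the threshold at 2 h. Cldn7 was at 5.41 ± 1.33 in ANIT and 5.09 ± 1.15 in vehicle bile duct (SD, n = 5 each), a change of 0.32 with a 95% interval of -0.96 to 1.59. Cdh1 was at 9.62 ± 0.81 in ANIT and 10.1 ± 0.19 in vehicle bile duct, a change of -0.46 with an interval of -1.16 to 0.25. Tjp1 was at 8.19 ± 0.81 in ANIT and 8.59 ± 0.11 in vehicle bile duct, a change of -0.41 with an interval of -1.10 to 0.29. For Cdh1 and Tjp1 the ANIT arrays were the more spread, and for Cldn7 both groups were. The brighter Ocln probe set changed by 0.20 ± 0.36 (SE), the dimmer one by -0.19 ± 0.40, Cldn3 by -0.27 ± 0.24 and Cldn1 by -0.10 ± 0.27. Beside these, the cholangiocyte marker mean was 7.14 to 7.99 in ANIT bile duct at 2 h, against 8.18 to 8.61 in vehicle bile duct, with no overlap (exact permutation p = 0.00794, adjusted 0.0794), and 1 of the 9 markers, Onecut1, passed as lower (-2.03, adjusted p = 0.0172). The hepatocyte marker mean was 4.78 to 6.67 in ANIT, against 4.25 to 6.12 in vehicle bile duct, and none of the 12 passed by limma, with 5 at an unadjusted p under 0.05. Among the members, Cldn4 had a positive change and Cdh1 and Tjp1 negative ones in these arrays, none of them past the threshold. The Cdh1 change turned positive without both low-SD ANIT arrays (0.09) and with the SD as a covariate (0.08). In the authors' deposited table Cdh1 and Tjp1 were positive too (0.13 and 0.03 on the log2 scale). The part of the cholangiocyte markers was not tested, and with the hepatocyte marker level as a covariate no member passed at 2 h.

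Whether the 2 times differ was tested directly as the ANIT effect at 6 h minus that at 2 h. Only Cdh1 passed, at 1.88 ± 0.45 (SE, adjusted p = 0.0291), where 3.57% of all probe sets did, 2.42% higher. For Cdh1 the difference held in 13 of 19 fits that left out 1 array, with adjusted p up to 0.0577, and it was lost when the low-SD ANIT arrays at 2 h were both left out. Cldn7 differed by 2.55 ± 0.83 (adjusted p = 0.0748), Cldn4 by 2.02 ± 0.71 (adjusted p = 0.0936), the brighter Ocln probe set by 1.78 ± 0.53 (adjusted p = 0.0578) and Tjp1 by 1.41 ± 0.42 (adjusted p = 0.0587), and so did not pass. Their calls turn on single arrays: Cldn4 passed without ANIT replicate 3 of 6 h (2.55, adjusted p = 0.0348), and Cldn7 (2.80, adjusted p = 0.0494), the brighter Ocln probe set (2.06, adjusted p = 0.0265) and Tjp1 (1.53, adjusted p = 0.0407) passed without ANIT replicate 1 of 2 h. These 3 also passed without ANIT replicate 3 of 2 h.

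No member passed in hepatocyte captures. None of the 15866 probe sets passed by limma in hepatocytes at 2 h or at 6 h (0% called, with 1195 and 1285 at an unadjusted p under 0.05), while adjusted p in the authors' deposited table passed for 2 and 3. Of the members, 2 had an unadjusted p under 0.05 at 2 h and none at 6 h. The lowest was that of Tjp1 at 2 h, with 6.81, 6.76, 6.9, 6.85 and 6.57 in ANIT hepatocytes, against 6.93, 7.02, 7.10, 7.36 and 7.02 in vehicle hepatocytes. The groups did not overlap, but the change was small, -0.31 ± 0.10 (SE, unadjusted p = 0.00893, adjusted 0.534).

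At 6 h Cldn4 stayed between 1.74 and 2.46 in ANIT hepatocytes, against 1.75 to 2.20 in vehicle hepatocytes, and Cldn7 between 1.71 and 2.59 in ANIT, against 1.73 to 2.28 in vehicle hepatocytes. Cdh1 read 7.20, 7.72, 6.89, 7.54 and 7.12 in ANIT hepatocytes, against 7.84, 7.73, 7.36, 7.57 and 7.68 in vehicle hepatocytes, a change of -0.34 ± 0.16 (SE, adjusted p = 0.615). The 95% intervals of the 6 h hepatocyte changes lay between -0.69 and 0.69 for all 8 members. Cldn4 and Cldn7 lie near the floor in hepatocytes, so their intervals could not show a fall. The dimmer Ocln probe set was also low, with a mean of 2.44 in ANIT and 2.13 in vehicle hepatocytes at 6 h.

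The test of the difference between regions at 6 h passed for the 5 members that rose, where 7.05% of all probe sets passed, 5.21% higher. The ANIT effect in bile duct exceeded that in hepatocytes by 2.85 ± 0.56 for Cldn4 (SE, adjusted p = 0.00376), by 2.79 ± 0.51 for Cldn7 (adjusted p = 0.00210), by 2.03 ± 0.40 for the brighter Ocln probe set (adjusted p = 0.00387), by 1.76 ± 0.31 for Cdh1 (adjusted p = 0.00147) and by 0.95 ± 0.25 for Tjp1 (adjusted p = 0.0258). For Tjp1 it held in 16 of 19 fits without 1 array, and for the other 4 in 19 of 19. The Tjp1 call was also lost after quantile normalization again, with array weights and with either replicate block, with adjusted p up to 0.119. The bile duct arrays of this test are those whose SD separates ANIT from vehicle at 6 h. In hepatocytes at 6 h the SD averaged 2.27 in ANIT and 2.27 in vehicle arrays. The region difference and the SD difference thus cannot be told apart, and this test was not run with the SD as a covariate. For Cldn4 and Cldn7 the hepatocyte side also lies near the floor. Cldn1 also passed, at -1.17 (adjusted p = 0.0416), when vehicle bile duct replicate 4 was left out. At 2 h none of the 8 passed by limma, where 1.02% of all did (0.240% higher and 0.782% lower), with 1 at an unadjusted p under 0.05, Cldn4 at 1.03 ± 0.48 (adjusted p = 0.309). Without ANIT bile duct replicate 2 this Cldn4 difference was 1.47 and passed (adjusted p = 0.0134).

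**Figure D3:**
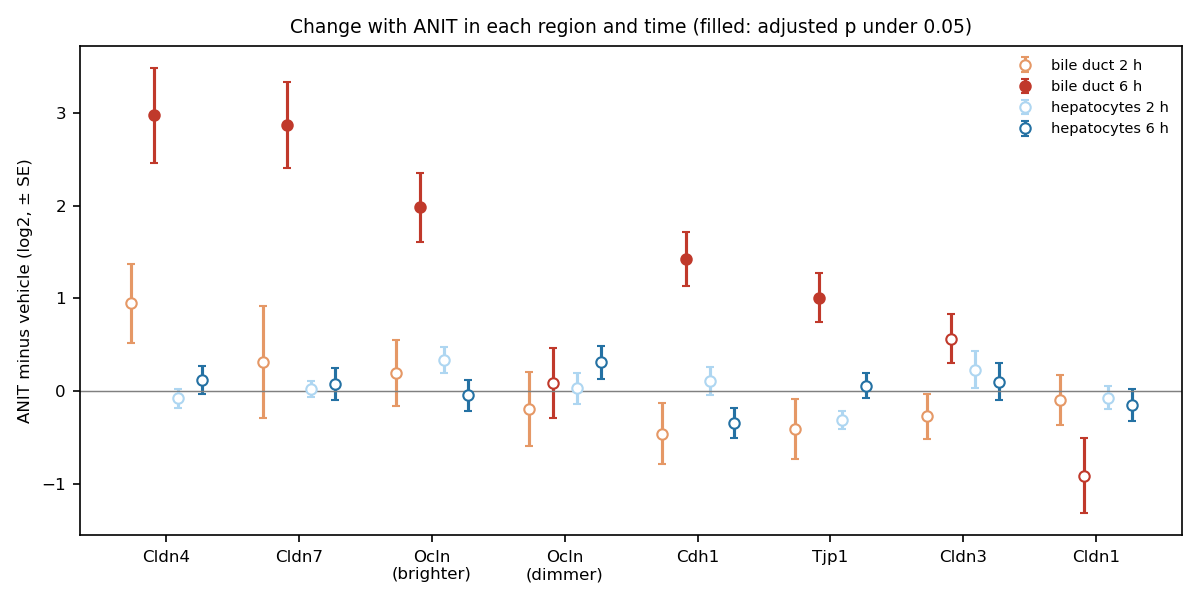
The change with ANIT (ANIT minus vehicle, log2, with its SE) is plotted for each member probe set in bile duct at 2 h and 6 h and in hepatocytes at 2 h and 6 h. Filled points passed at an adjusted p under 0.05, and all 5 of them are bile duct changes at 6 h, from 2.97 for Cldn4 to 1.01 for Tjp1.

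Between 6 h and 2 h, 2 claudins differed in vehicle hepatocytes, where 22.2% of all probe sets passed, 9.44% higher and 12.8% lower, so that 2 of 8 is near the share over all. Cldn1 stood at 3.38, 3.86, 3.39, 2.85 and 3.31 at 6 h, against 4.39, 4.49, 4.00, 4.27 and 4.08 at 2 h, a change of -0.89 ± 0.16 (SE, adjusted p = 0.00212). Every later array was below every earlier one, and the call was lost in 1 fit over all 39 arrays (adjusted p = 0.0510). Cldn3 stood at 7.41, 7.33, 7.16, 7.09 and 8.27 at 6 h, against 7.07, 6.98, 6.82, 6.65 and 6.01 at 2 h, a change of 0.75 ± 0.23 (adjusted p = 0.0323). Replicate 5 was the highest Cldn3 array at 6 h and the lowest at 2 h, and the call held in 5 of 10 fits without 1 array, with a change of 0.54 (adjusted p = 0.0596) without the 6 h one, and was lost with the replicate block (adjusted p = 0.0627). The ANIT hepatocytes lay near their vehicle groups at both times, at 4.18 ± 0.23 at 2 h and 3.21 ± 0.22 at 6 h for Cldn1 and at 6.94 ± 0.32 at 2 h and 7.55 ± 0.19 at 6 h for Cldn3 (SD, n = 5).

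Ordered over the 8 groups, the means of Cldn4 and Cldn7 ran from ANIT bile duct at 6 h through ANIT bile duct at 2 h, vehicle bile duct at 2 h and vehicle bile duct at 6 h to the 4 hepatocyte groups. The arrays of neighbours in the order overlapped in 5 of 7 pairs for Cldn4, and in 6 of 7 for Cldn7. For both genes they did not overlap from vehicle bile duct at 6 h to the first hepatocyte group. For Cldn4 they also did not overlap from vehicle bile duct at 2 h to that of 6 h. The call of that Cldn4 step (limma adjusted p = 0.0372) held in 2 of 9 fits without 1 array and was lost under 6 of 10 alternatives. Overlap is a description of ranges, and its share over all probe sets was not counted. Cdh1 and Tjp1 were also highest in ANIT bile duct at 6 h, but vehicle bile duct at 2 h came second for each, and the arrays overlapped in 6 of 7 pairs for Cdh1 and 5 of 7 for Tjp1. Cldn3 was highest in ANIT bile duct at 6 h and lowest in vehicle hepatocytes at 2 h, and Cldn1 was highest in vehicle hepatocytes at 2 h and lowest in ANIT bile duct at 2 h.

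The members varied together among bile duct arrays to different degrees. As a description over 19 arrays that share groups, Pearson's r was 0.859 for Cldn7 and Cdh1, 0.806 for Cldn4 and Cldn7, 0.789 for Cdh1 and Tjp1, 0.742 for the brighter Ocln probe set and Cdh1, 0.720 for Cldn4 and Cdh1, and 0.755 for Cldn3 and Tjp1. Cldn1 ran the other way, with r of -0.509 to Cdh1 and -0.507 to Cldn7. The 2 Ocln probe sets correlated at only 0.341 over these arrays. Within the 20 hepatocyte arrays, where Cldn4 and Cldn7 lie near the floor and their correlations are not read, r was -0.124 for Cdh1 and Tjp1 and -0.608 for Cldn1 and Cldn3.

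The genes whose pattern was most like each member's were found by Pearson's r among the annotated probe sets, over arrays that share region, treatment and time. Over the 39 arrays, Cldn4 was followed by Map2 (0.980), Ndrg1 (0.968) and St14 (0.967), Cldn7 by Map2 (0.963), Anxa7 (0.957) and Gstp1 (0.955), and Cdh1 by St14 (0.968), Map2 (0.967) and Ezr (0.965). Map2 thus came up for 3 members and St14, the serine protease matriptase, for 2. Ocln was followed by Tgif1 (0.918), Gstp1 (0.918) and Rnf44 (0.909), and Tjp1 by Ckap4 (0.954), Lrrfip1 (0.951) and Cdcp1 (0.951). Cldn3 had Vav2 (0.853), Cadm1 (0.828) and Tcim (0.827), and Cldn1 had Ndufa5 (0.765), Gprc5c (0.728) and Lynx1 (0.707), below those of the other members.

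Over the 19 bile duct arrays alone the lists were others. Cldn4 was followed by Tgm1 (0.916), Rras2 (0.902) and Rhou (0.899), Cldn7 by Cldnd1 (0.919), Ran (0.910) and Ano6 (0.906), and Ocln by Nup153 (0.902), Tmx1 (0.877) and Nvl (0.874). Cdh1 was followed by Eef1b2 (0.954), Uba2 (0.950) and Clic1 (0.949), and Tjp1 by Ckap4 (0.953), Rac1 (0.916) and Lrrfip1 (0.908). Tgm1 is a transglutaminase of epithelial barriers, and Rac1 and Rhou are small GTPases that act on actin. Ckap4 and Lrrfip1 stood among the 3 closest to Tjp1 in both sets of arrays. Cldn3 had Dffa (0.901), Scaf8 (0.873) and Pawr (0.864), and Cldn1 had Fitm1 (0.864), Slc14a2 (0.847) and Rap2b (0.831).

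Other junction genes were read from 7 lists with 95 names, of which 58 genes were measured under 1 symbol. In bile duct at 6 h, 9 of the 58 had risen and 1 had fallen, beside 5.17% and 1.34% of all probe sets. Of 13 other tight junction genes, 3 rose: Ybx3, a transcription factor that binds ZO-1, by 1.89 ± 0.38 (SE, adjusted p = 0.0101), Lsr, the angulin of tricellular junctions, by 1.38 ± 0.30 (adjusted p = 0.0153) and F11r, the junctional adhesion molecule JAM-A, by 1.27 ± 0.34 (adjusted p = 0.0372). The median of this list was 0.83. No other claudin passed: of 7, Cldn19 (-0.71 ± 0.32, adjusted p = 0.204) had an unadjusted p under 0.05, Cldn5 was next (-0.89 ± 0.47, adjusted p = 0.270), and the list's median was -0.07.

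Of 12 other adherens junction genes, 3 rose. Pvr, the poliovirus receptor of the nectin family, averaged 7.39 ± 0.61 in ANIT and 4.07 ± 1.39 in vehicle bile duct (SD, n = 5 and 4), a change of 3.33 ± 0.53 (SE, adjusted p = 0.00346) and the largest of the 58. Ctnna1, alpha-catenin, which ties the cadherin complex to actin, rose by 1.53 ± 0.38 (adjusted p = 0.0261), and Nectin2, a partner of Pvr's family, rose by 1.18 ± 0.33 (adjusted p = 0.0438). The probe sets of Nectin2 disagreed: another changed by 2.4 (adjusted p = 0.00942) and the other by -0.48 (adjusted p = 0.406). Nectin4 (-0.23, adjusted p = 0.787) and Magi3 (1.15, adjusted p = 0.104) did not pass by their brightest probe set, but another of each did (1.97, adjusted p = 0.0251 for Nectin4 and 1.42, adjusted p = 0.0248 for Magi3). Ctnnb1, beta-catenin, the partner of E-cadherin that joins it to alpha-catenin, changed by 0.14 ± 0.26 (adjusted p = 0.781).

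Of 6 desmosome genes, Dsp, desmoplakin, rose by 1.33 ± 0.36 (SE, adjusted p = 0.0394). Of 7 genes of EpCAM, its claudin-7 partners and membrane serine proteases, St14, matriptase, averaged 9.69 ± 0.33 in ANIT and 6.96 ± 0.71 in vehicle bile duct (SD, n = 5 and 4), a change of 2.73 ± 0.35 (SE, adjusted p = 0.00123). Epcam, the adhesion molecule that binds claudin-7, stood just outside the threshold at 0.94 ± 0.27 (adjusted p = 0.0501), and Cd44, at 0.53 (adjusted p = 0.686), had another probe set that passed (2.70, adjusted p = 0.0116). Of 7 transcription factors of junction genes, Klf4 rose by 1.14 ± 0.30 (adjusted p = 0.0335). Of 6 gap junction genes 1 fell, Gja5, a connexin, by 1.65 on the log2 scale (adjusted p = 0.0296), but its other probe set changed by -0.22 (adjusted p = 0.702). The 9 rises share the arrays, and so the SD difference, of the members. Of the repressors named with the E-box, Snai1 changed by -0.44 ± 0.36 (adjusted p = 0.484) and Zeb1 by -0.25 ± 0.33 (adjusted p = 0.695) in bile duct at 6 h.

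**Figure D4:**
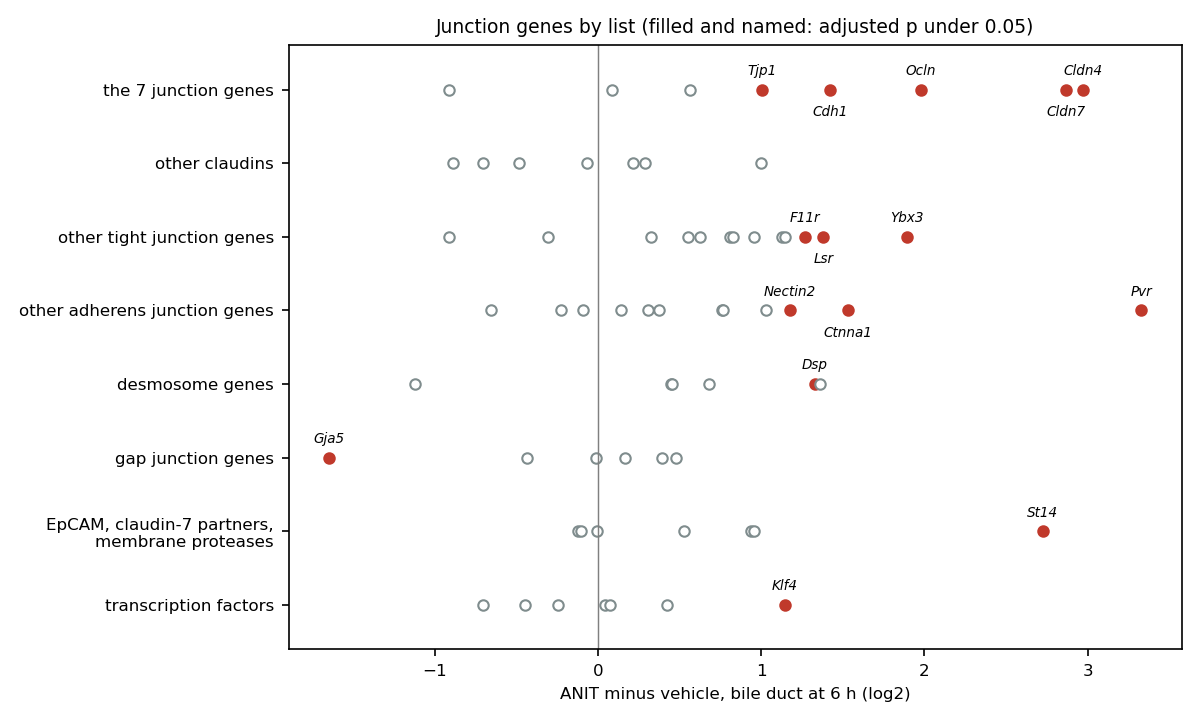
Each point is 1 gene (for the 7 junction genes, 1 probe set), placed by its change with ANIT in bile duct at 6 h (ANIT minus vehicle, log2) in the row of its list. Filled and named points passed at an adjusted p under 0.05: 5 of 8 member probe sets and 10 of 58 genes of the other lists, of which only Gja5 lies below 0.

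At 2 h none of the 58 passed in bile duct by limma, where 1.12% of all probe sets did. Of the 58, 11 had an unadjusted p under 0.05, beside 2675 of all 15866 probe sets, so this count does not set the 58 apart. The 2 lowest p of each list belonged to Magi1 (0.70 ± 0.30, SE, adjusted p = 0.263) and F11r (-0.64 ± 0.29, adjusted p = 0.283) among tight junction genes, to Pvr (2.10 ± 0.74, adjusted p = 0.172) and Lima1 (-0.75 ± 0.30, adjusted p = 0.233) among adherens junction genes, and to Dsc2 (-1.43 ± 0.39, adjusted p = 0.0852) and Evpl (-0.33 ± 0.30, adjusted p = 0.586) among desmosome genes. They were Cldn11 (0.60 ± 0.30, adjusted p = 0.320) and Cldn10 (0.29 ± 0.25, adjusted p = 0.583) among claudins, and Gjb1 (-0.84 ± 0.27, adjusted p = 0.133) and Gjb5 (0.36 ± 0.30, adjusted p = 0.558) among gap junction genes. They were Cd9 (-1.09 ± 0.44, adjusted p = 0.234) and Prss8 (-0.75 ± 0.34, adjusted p = 0.282) in the EpCAM and protease list, and Elf3 (-1.05 ± 0.30, adjusted p = 0.0975) and Zeb1 (0.46 ± 0.25, adjusted p = 0.363) among transcription factors. These genes differ in sign from list to list, and Pvr, which passed at 6 h, was the one with the largest change.

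In vehicle rats at 2 h, 31 of the 58 genes were higher in bile duct and 12 lower, beside 28.7% and 23.5% of all probe sets. Among the other claudins, Cldn5 (1.21) and Cldn16 (0.66) were higher in bile duct, and Cldn2, a channel-forming claudin, and Cldn12 were lower, with differences of -3.51 and -2.57. Cldn2 averaged 4.96 in bile duct and 8.47 in hepatocytes, so its hepatocyte-rich pattern was the reverse of that of Cldn4 and Cldn7. Of the 12 adherens junction genes 7 were higher in bile duct and 3 lower, with Nectin4 (3.72) and Pvr (1.87) higher in bile duct and Cdh2, N-cadherin (-2.02), and Nectin1 (-1.0) lower, while Cdh1 was higher there. Of the 6 gap junction genes 3 were higher and 2 lower, with Gja1, a connexin (4.35), and Gja5 (1.36) higher in bile duct, and Gjb2 (-4.29) and Gjb1 (-1.28), the connexins of hepatocytes, lower. The other probe sets of Gja1 (0.18, adjusted p = 0.257, and 0.39, adjusted p = 0.0837) and of Gja5 (0.27, adjusted p = 0.113) did not pass.

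All 7 measured genes of the EpCAM and protease list were higher in bile duct at 2 h, led by the tetraspanin Tspan8 (7.92) and by St14 (5.70), and their median difference was 5.04. Tight junction genes that were higher included Magi3 (2.87) and F11r (1.83), and those that were lower Mpdz (-1.15) and Cgnl1 (-0.33), and of the other 2 probe sets of Magi3 1 did not pass (-0.04, adjusted p = 0.846). By their brightest probe sets, Dsp (1.34) and Evpl (1.11) were the desmosome genes most above hepatocytes and Dsc2 (-1.12) and Pkp4 (-0.43) those most below. Another probe set of the desmosome gene Perp was further below (-2.06, adjusted p = 1.04e-06). Of the transcription factors, Klf5 (3.96) and Elf3 (3.08) were higher in bile duct, and Hnf4a (-1.51), which drives hepatocyte identity, was lower. Each value named here, apart from those of the other probe sets, is a log2 difference of vehicle bile duct minus vehicle hepatocytes and passed at an adjusted p under 0.05.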

How the data were processed

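Bile duct and hepatocyte captures from rat liver were measured on 39 Affymetrix arrays in 8 groups. RNA was isolated with Picopure and amplified with NuGen Ovation, per the labels' protocols. The deposited values are RMA summaries on the log2 scale, per the submitters' processing notes, whose version is not given in the sources used here. The authors' deposited tables hold a log10 ratio, a fold and a p-value for each ANIT comparison, made with Rosetta Resolver per the series' design text.

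From the log2 values, 15866 probe sets (57 array controls left out) were tested with limma 3.58.1 in R 4.3.3 (lmFit, eBayes) in 12 comparisons, each on the arrays of its own groups. P-values were adjusted by Benjamini-Hochberg over all probe sets, with a threshold of 0.05, and every adjusted p without another name is limma's. Probe sets with 1 symbol numbered 12783, with several 312, and 2771 were not listed. A gene with several was represented by the one with the highest mean. Array measures were compared by exact two-sided permutation tests. From each junction list, genes past the threshold were named, up to 6 by smallest p, or else the 2 with the smallest p. For the region comparison the 2 largest differences in each direction were named, and for likeness the 3 genes with the highest r. The members and lists were chosen with earlier results of these data known. Marker lists of 5 cell types were read beside them. In bile duct at 6 h none of the 6 endothelial, 8 fibroblast and smooth muscle or 6 macrophage and leukocyte markers passed by limma, with 0, 0 and 2 at an unadjusted p under 0.05. The code was tested on simulated data. The number of arrays limits the precision.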

Additional observations from a re-analysis of the deposited data

Results flagged for a closer look

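In 4 of 64 sets of arrays tested, 1 array lay far from the others of its group, and chance sets apart about 1 in 20 groups. Cldn3 read 8.5 in ANIT bile duct replicate 1 at 6 h, where the other 4 arrays lay between 8.25 and 8.31. Cldn3 read 8.27 in vehicle hepatocyte replicate 5 at 6 h, where the others lay between 7.09 and 7.41. Cldn7 read 1.78 in vehicle hepatocyte replicate 4 at 2 h, where the others lay between 1.97 and 1.99. The dimmer Ocln probe set read 2.94 in ANIT hepatocyte replicate 2 at 2 h, where the others lay between 2.24 and 2.41.

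The effect of ANIT at 6 h differed between bile duct and hepatocytes by a test of the difference itself for 5 members, where 7.05% of all probe sets passed. It was larger in bile duct by 2.85 for Cldn4, by 2.79 for Cldn7, by 2.03 for the brighter Ocln probe set, by 1.76 for Cdh1 and by 0.95 for Tjp1. The Tjp1 call was lost under 4 of 9 alternatives, and the SD of the 6 h bile duct arrays also separates ANIT from vehicle. In bile duct the effect at 6 h exceeded that at 2 h by 1.88 for Cdh1, also by a test of the difference, where 3.57% of all probe sets passed. That Cdh1 call was lost under 4 of 9 alternatives and held in 13 of 19 fits without 1 array. It rests on the same 6 h bile duct arrays and was not tested with the SD as a covariate.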

How the results depend on the processing

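Of 806 single member values under alternatives other than left-out arrays, 737 kept their side of the threshold, 50 no longer passed, 18 newly passed and 1 reversed. The 737 include values that changed sign with neither value past the threshold. With the left-out arrays counted too, 86 values changed sign in that way. The 1 counted as reversed was Cldn1 in vehicle bile duct at 6 h minus 2 h, at -0.19 with the array SD as a covariate. The cause of the changes was not tested.

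Counts are members past the threshold. For ANIT in bile duct at 6 h, 5 passed, against 3 with a replicate block, 0 with the array SD as a covariate and 1 without the arrays of high hepatocyte signal, an alternative chosen after seeing the data. With the replicate block Cldn4, Cldn7 and the brighter Ocln probe set still passed, while Cdh1 (adjusted p = 0.0540) and Tjp1 (adjusted p = 0.118) did not. Over all probe sets that comparison called 1033, against 609 after quantile normalization again, 4564 in 1 fit over all 39 arrays, 400 with the replicate block, 618 from the authors' p-values, 2247 with 2 h vehicle controls, 263 without the high hepatocyte arrays and 0 with the SD covariate. ANIT in bile duct at 2 h called 178 probe sets, against 471 with array weights, 1634 in 1 fit over all 39 arrays, 99 with the replicate block and 1 with the hepatocyte marker covariate, and ANIT in hepatocytes at 6 h called 0, against 3 to 20 under 6 alternatives with no member among them. In hepatocytes at 2 h 2 passed by the authors' p-values, against 0. The vehicle region comparison called 8286 at 2 h, against 4257 with dim probe sets removed, and 8515 at 6 h, against 3566 with them removed and 5428 after quantile normalization again. The region difference of ANIT called 162 at 2 h, against 297 with array weights, 95 in 1 fit over all 39 arrays, 106 with the replicate block, 62 with a block by file number and 416 without the low-spread arrays, and 1118 at 6 h, against 705 with array weights, 560 with the block by file number and 1745 without the high hepatocyte arrays. The time difference of ANIT in bile duct called 566, against 65 after quantile normalization again, 209 with array weights, 4185 in 1 fit over all 39 arrays, 31 without the low-spread arrays and 198 without the high hepatocyte arrays. Vehicle bile duct over time called 2228, against 560 after quantile normalization again, 1460 with dim probe sets removed, 5937 in 1 fit over all 39 arrays, 509 with the replicate block and 0 with the SD covariate, and vehicle hepatocytes over time called 3529, against 510 in 1 fit over all 39 arrays. In counts of members, dim probe sets removed left 3 of 3 tested in the vehicle region comparison at 2 h (8 before), 2 of 3 at 6 h (6 before) and 2 of 3 in the region difference of ANIT at 6 h (5 before). That difference at 2 h gave 1 with array weights and 1 without both low-spread ANIT arrays, also chosen after seeing the data, against 0. The ANIT effect of 6 h minus 2 h in bile duct gave 1, against 0 with quantile normalization again, array weights, both low-spread arrays left out or the high hepatocyte arrays left out, 3 with array medians subtracted, dim probe sets removed or a trended robust fit, and 6 in 1 fit over all 39 arrays. Vehicle bile duct over time gave 3, against 1 with array weights and 0 with quantile normalization again, a replicate block, either covariate or the high hepatocyte arrays left out. Vehicle hepatocytes over time gave 2, against 1 with dim probe sets removed, in 1 fit over all 39 arrays or with the replicate block.

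Leaving out 1 array at a time gave 0 to 1 for ANIT in bile duct at 2 h (1 without ANIT replicate 2), 4 to 6 at 6 h, 8 to 8 and 4 to 6 for the vehicle region comparison at 2 h and 6 h, 0 to 1 and 4 to 6 for the region difference of ANIT at 2 h and 6 h, 0 to 4 for its time difference in bile duct, 0 to 3 for vehicle bile duct over time, 1 to 2 for vehicle hepatocytes over time and 0 to 0 for ANIT in hepatocytes. In no comparison did every pair of same-numbered arrays correlate above 0.1 in its deviations, so the numbers were not taken to pair arrays: the correlation was -0.137 to 0.0850 over 4 pairs for ANIT and vehicle bile duct at 6 h, where 1 array correlated best with its own number, and highest in hepatocytes at 2 h, at -0.199 to 0.348 with 3 of 5 pairs above 0.1 and 3 arrays best with their own number. For vehicle bile duct and hepatocytes at 2 h it was -0.0256 to 0.129 over 5 pairs, against at most 0.0623 for other pairs. There 3 arrays correlated best with their own number. The file numbers of the 2 regions share their last digits. This rule cannot exclude that such arrays came from 1 rat, and the main region tests treat arrays as independent.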
